A study of Mus musculus with 9 samples.

Results

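The genes described here build the pre-B cell receptor or mark the earliest B cells. They are 9 genes, Vpreb1, Igll1, Vpreb3, Cd79a, Cd79b, Dntt, Rag1, Ebf1 and Pax5, among 17731 genes with a probe set on the arrays, and all 9 were measured. Each was read from a probe set that carried its symbol alone, chosen by the mean log2 value over the 9 arrays where a gene had several. That choice was made only for Pax5, which had 2 probe sets, at 4.45 and 3.75 on average; the other 8 genes had 1 each. The list itself was selected on earlier results of these arrays, in which Vpreb1, Igll1 and Dntt were seen to be higher with mutant IDH1 than with empty vector. Their differences in that comparison are therefore a description and no independent support. The comparison of IDH1mut with IDH1wt uses the same IDH1mut arrays, so it is no independent support either.

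Cells came from the bone marrow of C57BL6 mice, made immortal with HoxA9, a homeobox leukemia gene, and all groups carried HoxA9. They were transduced with a retroviral vector and injected into irradiated mice of the same strain, and the green fluorescent marrow cells were sorted out 4 weeks later. The IDH1mut group carried a vector with mutant IDH1, the IDH1wt group one with wild-type IDH1 and the CTL group the empty EGFP vector, with 3 arrays each. The labels give neither the mutation, nor the age or number of mice, nor whether replicates came from separate mice, so p-values measure only the spread between these samples. The labels do not say how many founder clones a group holds. The cells are bulk populations, in which fewer cells of a type and less RNA per cell cannot be told apart.

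A B cell precursor first opens its immunoglobulin heavy chain locus with the RAG recombinase and then tests the new heavy chain by pairing it with a surrogate light chain. Heavy chain, surrogate light chain and the signalling pair CD79A and CD79B make up the pre-B cell receptor, which tells the cell to divide and go on to its light chain genes. The transcription factors EBF1 and PAX5 start and fix this programme, and Igll1, Vpreb1 and Cd79a are textbook targets of EBF1 in the mouse. In marrow these genes are used by pro-B and pre-B cells, and Dntt and Rag1 also by lymphoid progenitors that are not yet committed.

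Vpreb1 and Igll1 lie side by side on chromosome 16, with Igll1 at 16860671 to 16863985 and Vpreb1 at 16868401 to 16869255 on build GRCm38.p6, 4415 bases apart. The windows below run from 250 bases before to 50 bases after the start site, from RefSeq, which held such windows for 8 of the 9 genes. They are shown for the 3 genes that passed the test, Vpreb1, Igll1 and Dntt, and for Vpreb3, a related gene that did not pass it. Capitals mark matches on either strand to CCCNNGGG, the core of the EBF1 motif, to CAGGTG, an E-box read by E proteins, or to TGGGAA, the core of the Ikaros motif.
Vpreb1 promoter, chr16:16869206-16869505, minus strand: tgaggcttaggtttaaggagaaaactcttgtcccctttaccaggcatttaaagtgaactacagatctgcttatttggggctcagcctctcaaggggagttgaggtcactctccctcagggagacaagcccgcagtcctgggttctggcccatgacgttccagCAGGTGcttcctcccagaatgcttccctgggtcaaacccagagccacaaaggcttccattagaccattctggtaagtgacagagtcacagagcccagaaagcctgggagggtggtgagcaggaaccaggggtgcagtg
Igll1 promoter, chr16:16863936-16864235, minus strand: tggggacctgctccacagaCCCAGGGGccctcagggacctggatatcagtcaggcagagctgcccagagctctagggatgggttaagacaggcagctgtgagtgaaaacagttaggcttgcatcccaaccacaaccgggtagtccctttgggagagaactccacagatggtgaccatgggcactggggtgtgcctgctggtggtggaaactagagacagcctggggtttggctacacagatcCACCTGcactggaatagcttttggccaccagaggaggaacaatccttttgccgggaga
Dntt promoter, chr19:41029025-41029324, plus strand: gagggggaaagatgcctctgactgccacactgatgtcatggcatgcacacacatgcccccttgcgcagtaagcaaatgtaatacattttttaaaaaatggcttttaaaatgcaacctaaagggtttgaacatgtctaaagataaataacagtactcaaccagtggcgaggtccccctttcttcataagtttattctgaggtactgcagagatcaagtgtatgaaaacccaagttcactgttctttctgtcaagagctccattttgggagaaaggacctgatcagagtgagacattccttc
Vpreb3 promoter, chr10:75948050-75948349, plus strand: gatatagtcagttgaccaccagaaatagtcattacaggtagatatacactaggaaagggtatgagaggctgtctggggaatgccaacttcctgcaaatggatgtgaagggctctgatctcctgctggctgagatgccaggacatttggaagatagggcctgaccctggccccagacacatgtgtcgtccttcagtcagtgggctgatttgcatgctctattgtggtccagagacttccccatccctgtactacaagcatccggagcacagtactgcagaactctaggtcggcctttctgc
Vpreb1 held CAGGTG, with its first base at position -88 from the start site. Igll1 held CCCNNGGG at position -231 and the reverse complement of CAGGTG at position -8, and no matches overlapped. The windows of Dntt and Vpreb3 held none of the 3 strings, which says only that these letters are not in these windows. Over all members, CCCNNGGG was in 1, CAGGTG in 4 and TGGGAA in 2 of 9 windows (Ebf1 has 2). Of 32851 mouse windows, 13.7% held CCCNNGGG, 20.2% CAGGTG and 25.6% TGGGAA. These are matches of letters and no binding was measured.

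All values are log2 expression values made by RMA, and array medians lay between 4.65 and 4.72. Group differences come from limma fitted to all genes and all 9 arrays. Fold changes are differences of mean log2 values ± moderated standard error (SE), and adjusted p-values are Benjamini-Hochberg values over 17731 genes. "Rose" and "fell" mark genes with an adjusted p under 0.05. Probe sets of different genes have different affinities, so levels are compared between arrays and not between genes. Averaged over the arrays, Ebf1 (3.85), Cd79a (4.57) and Pax5 (4.45) read below the array medians and the other 6 genes above them; RMA gives no detection call.

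Vpreb1 encodes the variable-like half-chain of the surrogate light chain. It read 9.61, 8.85 and 10.42 on the IDH1mut arrays, 6.36, 7.77 and 7.17 on the IDH1wt arrays, and 7.57, 8.62 and 7.77 on the CTL arrays. Every IDH1mut array was above every array of the other groups, while IDH1wt and CTL overlapped. The mean was 9.63 ± 0.78 (SD, n = 3) in IDH1mut, 7.10 ± 0.70 in IDH1wt and 7.99 ± 0.56 in CTL. Vpreb1 rose 3.11-fold in IDH1mut against CTL (log2 fold change 1.64 ± 0.42; adjusted p = 0.0167) and 5.76-fold in IDH1mut against IDH1wt (2.53 ± 0.42; adjusted p = 0.00296). Mouse Vpreb2, a near-identical copy, has no probe set of its own in the table used here, so the signal may hold both genes.

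Igll1 encodes the constant-like partner that completes the surrogate light chain. It read 9.17, 8.53 and 10.07 on the IDH1mut arrays, 6.62, 7.43 and 6.99 on the IDH1wt arrays, and 7.51, 8.49 and 7.40 on the CTL arrays. The lowest IDH1mut array, replicate 2, was just above the highest CTL array, also replicate 2, and IDH1wt was clear of IDH1mut. Igll1 rose 2.75-fold in IDH1mut against CTL (1.46 ± 0.37; adjusted p = 0.0168) and 4.73-fold in IDH1mut against IDH1wt (2.24 ± 0.37; adjusted p = 0.00305). Its probe set is of the kind whose identifier marks probes that can also bind related sequences.

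Dntt encodes terminal deoxynucleotidyl transferase, which adds untemplated bases at the joints of rearranged genes. It read 7.02, 6.54 and 8.03 on the IDH1mut arrays, 4.02, 5.35 and 4.84 on the IDH1wt arrays, and 5.09, 6.05 and 5.38 on the CTL arrays. Again no IDH1mut array overlapped either other group. Dntt rose 3.22-fold in IDH1mut against CTL (1.69 ± 0.40; adjusted p = 0.011) and 5.50-fold in IDH1mut against IDH1wt (2.46 ± 0.40; adjusted p = 0.00252).

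**Figure D1:**
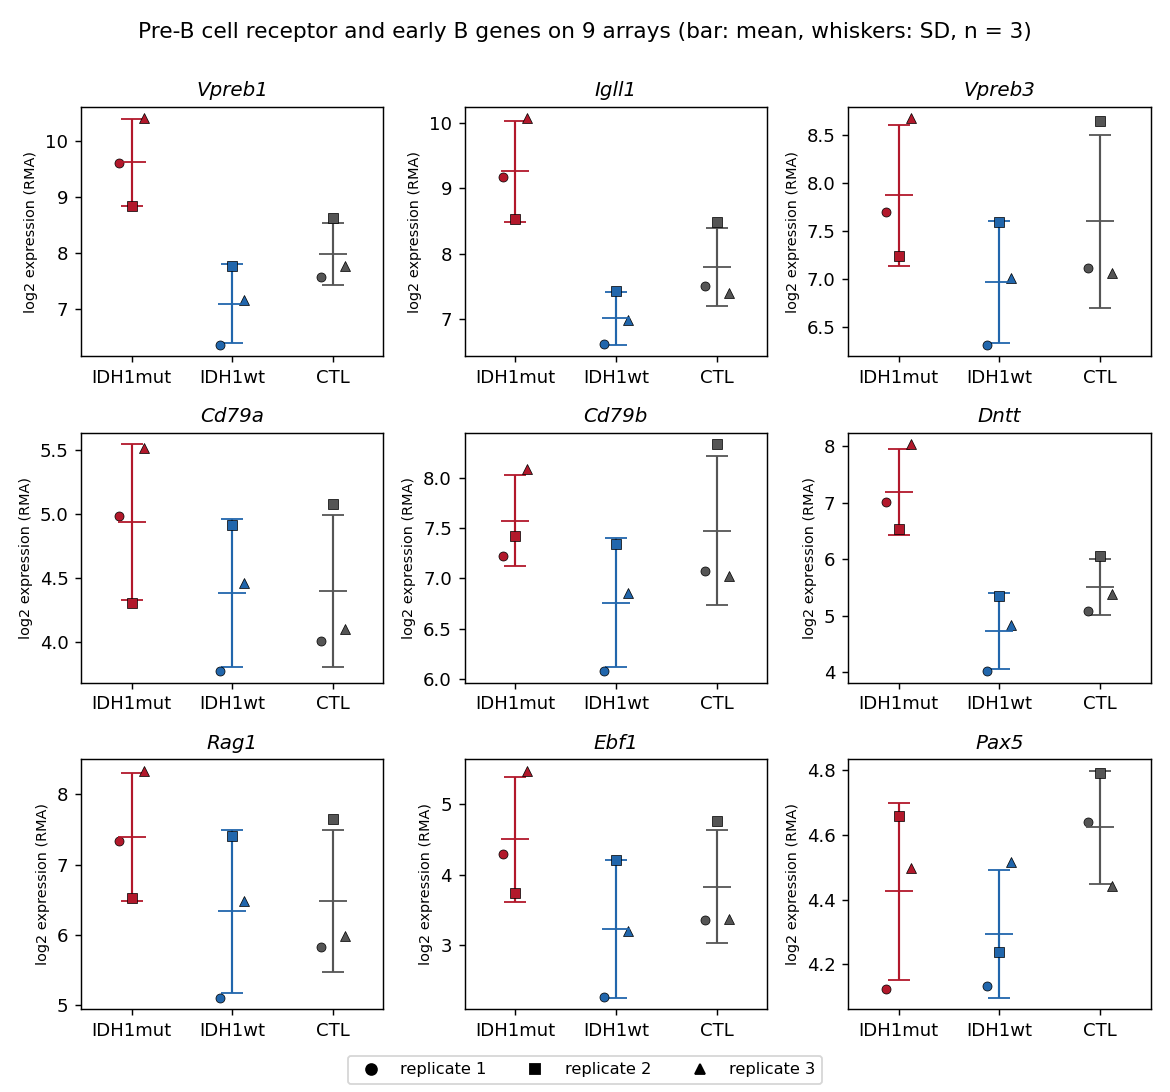
Log2 expression (RMA) of the 9 genes, 1 panel a gene, with IDH1mut, IDH1wt and CTL on the x axis; points are arrays, the shape gives the replicate, the long bar is the mean and the whiskers the SD of 3 arrays. The y axes differ between panels and do not start at 0. In Vpreb1, Igll1 and Dntt all 3 IDH1mut arrays lie above the other groups, and in the other 6 genes the groups overlap.

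Vpreb3, an endoplasmic reticulum protein of early B cells that binds free immunoglobulin chains, passed in no comparison. It read 7.70, 7.24 and 8.67 on the IDH1mut arrays, 6.32, 7.59 and 7.01 on the IDH1wt arrays, and 7.11, 8.64 and 7.06 on the CTL arrays. IDH1mut replicate 3 and CTL replicate 2 were near equal at the top, IDH1wt replicate 1 was lowest as for Vpreb1 and Igll1, and the groups overlapped. The log2 fold change was 0.27 ± 0.46 in IDH1mut against CTL (95% interval -0.74 to 1.28; adjusted p = 0.748) and 0.90 ± 0.46 in IDH1mut against IDH1wt (-0.11 to 1.91; adjusted p = 0.244).

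Cd79a and Cd79b encode the signalling chains Ig-alpha and Ig-beta, which the pre-B and the mature B cell receptor share. Cd79a read 4.99, 4.30 and 5.51 on the IDH1mut arrays, 3.77, 4.91 and 4.46 on the IDH1wt arrays, and 4.004, 5.08 and 4.10 on the CTL arrays. For Cd79b the values were 7.22, 7.42 and 8.08 on the IDH1mut arrays, 6.08, 7.34 and 6.85 on the IDH1wt arrays, and 7.07, 8.33 and 7.03 on the CTL arrays. Groups overlapped for both genes, and the highest Cd79b array of all was CTL replicate 2. Neither passed in IDH1mut against CTL, at 0.54 ± 0.36 for Cd79a (interval -0.25 to 1.33; adjusted p = 0.345) and 0.10 ± 0.38 for Cd79b (interval -0.73 to 0.93; adjusted p = 0.893). In IDH1mut against IDH1wt the log2 fold changes were 0.55 ± 0.36 for Cd79a (adjusted p = 0.373) and 0.82 ± 0.38 for Cd79b (adjusted p = 0.196).

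Rag1, the catalytic subunit of the V(D)J recombinase, read 7.33, 6.52 and 8.34 on the IDH1mut arrays, 5.11, 7.41 and 6.48 on the IDH1wt arrays, and 5.83, 7.65 and 5.98 on the CTL arrays. The IDH1wt arrays alone spanned 2.31 on the log2 scale, and no group stood clear. Its log2 fold change was 0.91 ± 0.62 in IDH1mut against CTL (interval -0.45 to 2.27; adjusted p = 0.353) and 1.06 ± 0.62 in IDH1mut against IDH1wt (interval -0.30 to 2.42; adjusted p = 0.313). Rag2, its partner, was chosen after its values were seen; it averaged 4.24 ± 0.43 in IDH1mut, 3.83 ± 0.12 in IDH1wt and 3.90 ± 0.28 in CTL (SD, n = 3 each), below the array medians, and did not pass in IDH1mut against CTL (0.34 ± 0.20; adjusted p = 0.27).

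Ebf1, the factor that opens the B cell programme, read 4.30, 3.74 and 5.47 on the IDH1mut arrays, 2.27, 4.21 and 3.21 on the IDH1wt arrays, and 3.36, 4.76 and 3.38 on the CTL arrays. Values overlapped between all groups. In IDH1mut against IDH1wt its log2 fold change was 1.27 ± 0.53 (interval 0.10 to 2.44; unadjusted p = 0.0362, adjusted p = 0.151 with limma), and in IDH1mut against CTL it was 0.67 ± 0.53 (adjusted p = 0.433). Pax5, which fixes B cell identity, read 4.13, 4.66 and 4.50 on the IDH1mut arrays, 4.13, 4.24 and 4.51 on the IDH1wt arrays, and 4.64, 4.79 and 4.44 on the CTL arrays. Pax5 was the only one of the 9 genes with an SD under 0.5 over the 9 arrays (0.24), and its log2 fold change was -0.20 ± 0.15 in IDH1mut against CTL (adjusted p = 0.421). Its other probe set averaged 3.56 in IDH1mut, 3.89 in IDH1wt and 3.81 in CTL.

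Counted together, 3 of 9 genes rose and 0 fell in IDH1mut against CTL, where 10.1% of all genes rose, 10.6% fell and 20.7% changed either way. Their median log2 fold change was 0.67, against -0.04 over all genes. In IDH1mut against IDH1wt 3 of 9 rose and 0 fell, where 6.54% of all genes rose and 13.3% changed either way, with a median of 1.06 against 0.00 over all genes (-0.00011). The risen genes were Vpreb1, Igll1 and Dntt in both comparisons, which share the IDH1mut arrays. The same 3 genes were those whose arrays did not overlap, where 16.3% of all genes read higher without overlap in IDH1mut against CTL and 14.1% in IDH1mut against IDH1wt.

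Single arrays decided part of the calls against CTL and none of those against IDH1wt. Without IDH1mut replicate 3, CTL replicate 1 or CTL replicate 3, Dntt alone still passed in IDH1mut against CTL; adjusted p was then at most 0.0739 for Vpreb1, 0.068 for Igll1 and 0.0474 for Dntt. With an unmoderated test 0 of 9 passed in IDH1mut against CTL, and likewise 0 with a spread model that follows intensity and resists outliers, at adjusted p of 0.0812 for Vpreb1, 0.08 for Igll1 and 0.0553 for Dntt. All 3 passed in IDH1mut against IDH1wt in each of the alternatives run, with adjusted p up to 0.0449.

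In IDH1wt against CTL 0 of 9 genes passed with limma, and 0 of 9 had an unadjusted p under 0.05, where 2.33% of all genes changed (1.62% rose and 0.711% fell). Each of the 9 mean differences was negative, with a median of -0.63 against -0.04 over all genes, and the arrays of the groups overlapped for each of the 9, where 23.6% of all genes did not overlap. Vpreb1 had a log2 fold change of -0.89 ± 0.42 (interval -1.80 to 0.03; adjusted p = 0.309), Igll1 -0.78 ± 0.37 (interval -1.60 to 0.03; adjusted p = 0.315) and Dntt -0.77 ± 0.40 (interval -1.64 to 0.10; adjusted p = 0.353). These intervals reach from a fall of more than 3-fold to about no difference. The difference of Rag1 was -0.15 ± 0.62 and that of Cd79a -0.01 ± 0.36, and both turned positive without CTL replicate 2 or IDH1wt replicate 1. The 9 genes share their arrays, so their common sign is not a count of independent results.

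**Figure D2:**
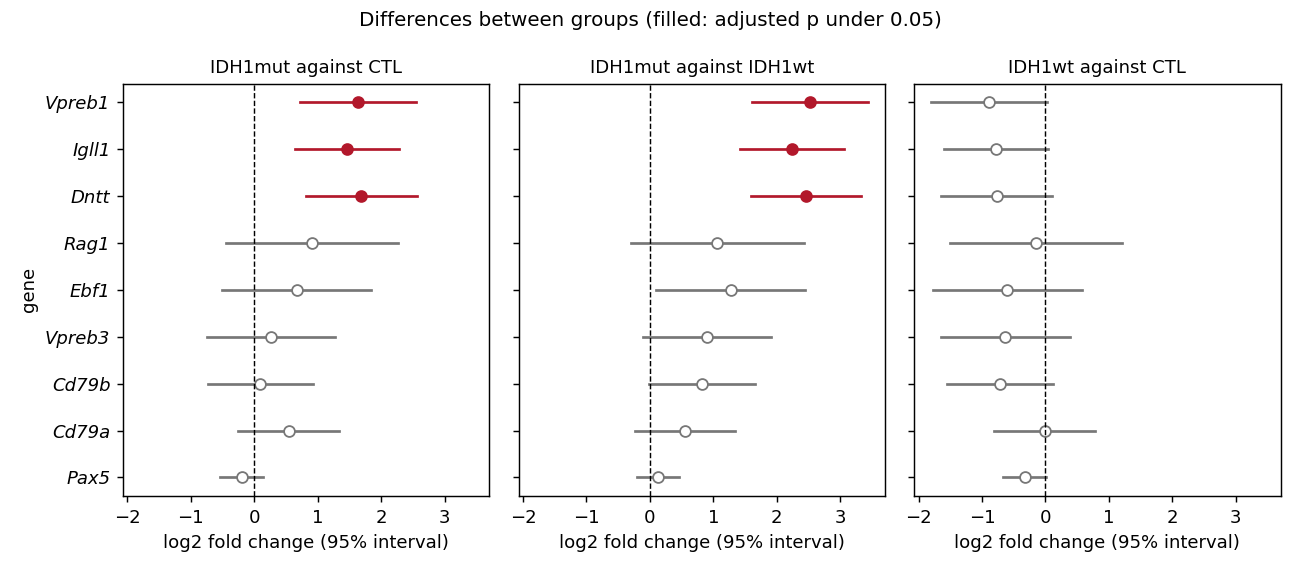
Log2 fold change (point) with its 95% interval (line) of each gene in IDH1mut against CTL, IDH1mut against IDH1wt and IDH1wt against CTL; filled red points have an adjusted p under 0.05 in limma. Vpreb1, Igll1 and Dntt are filled in the first and middle panels, and no gene is filled in IDH1wt against CTL, where all points are at or left of 0.

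The genes varied widely between arrays of 1 group. Their median range within a group was 1.49 in IDH1mut, 1.27 in IDH1wt and 1.09 in CTL on the log2 scale, against medians over all genes of 0.25, 0.25 and 0.22 in these groups. Over all genes, 95% had a range under 0.65 in IDH1mut, 0.65 in IDH1wt and 0.55 in CTL. Pax5 varied least of the members, with ranges of 0.53, 0.38 and 0.35 in IDH1mut, IDH1wt and CTL. These lay under the 95% values but above the medians over all genes.

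The same arrays were high or low in nearly every gene. IDH1mut replicate 3 was the highest array of its group for 8 of 9 genes, IDH1wt replicate 2 for 8 of 9 and CTL replicate 2 for 9 of 9. IDH1wt replicate 1 was the lowest of its group for 9 of 9 genes. Of all genes on the arrays, 31.0% were highest in IDH1mut replicate 3 within the group, 30.4% in IDH1wt replicate 2 and 37.1% in CTL replicate 2. In IDH1wt replicate 1 32.3% were lowest. In the other direction, 38.3% were lowest in IDH1mut replicate 3, 39.1% in IDH1wt replicate 2 and 37.2% in CTL replicate 2, and 39.9% were highest in IDH1wt replicate 1. These arrays thus did not lean over all genes in the direction seen for the 9 genes.

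**Figure D3:**
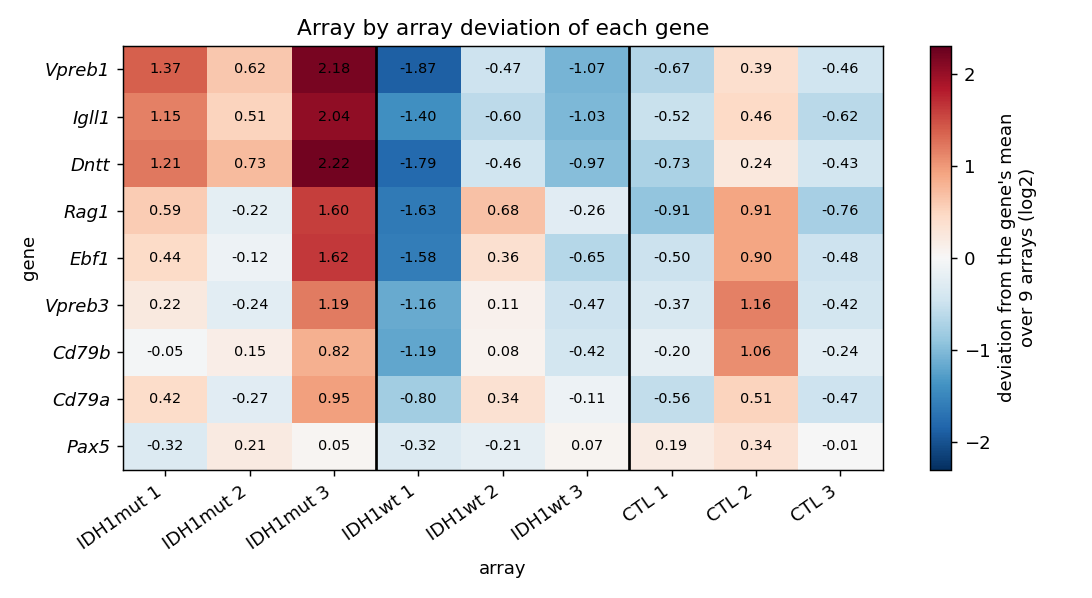
Deviation of each gene (rows) on each array (columns) from its own mean over the 9 arrays, in log2 units, printed in the cell and coloured red above and blue below the mean. IDH1mut replicate 3 is the reddest column and IDH1wt replicate 1 the bluest; the IDH1mut columns are red throughout for Vpreb1, Igll1 and Dntt, and mixed for the other genes.

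Likeness between the genes was measured as the root mean square difference of log2 values over the 9 arrays, each gene centred on its own mean. Vpreb1 and Dntt, which lie on chromosomes 16 and 19, differed by only 0.10, Vpreb1 and Igll1 by 0.20 and Igll1 and Dntt by 0.21, while each of these genes had an SD over the arrays of at least 1.12. Vpreb3 was 0.22 from Cd79b and 0.26 from Ebf1, and Rag1 was 0.25 from Ebf1 but 0.53 from Cd79b. Vpreb1 was 0.74 from Vpreb3, 0.82 from Cd79b and 0.57 from Ebf1, and Ebf1 was 0.51 from Igll1 and 0.58 from Dntt. Of the other genes Ebf1 was thus the nearest to Vpreb1, Igll1 and Dntt, but it was nearer to Rag1 and Vpreb3. Pax5 was near none of them, at 0.53 from Cd79b, its nearest, and 1.17 from Vpreb1. Vpreb1, Igll1 and Dntt were closer to each other than to any other member. The measure includes the IDH1mut and CTL arrays on which these genes were known to differ, so their closeness is a description and no independent support. It also depends on how much a gene varies, so Pax5, with its small SD, lies far from genes with a large SD. Among the other genes the likeness was graded, with Rag1 and Cd79b about as far apart as Ebf1 and Igll1. Whether the 9 genes form separate classes was not tested.

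The genes that passed and those that did not can be set side by side on each array, leaving out Pax5, which varied least among the members. The mean deviation of Vpreb1, Igll1 and Dntt, less that of Vpreb3, Rag1, Cd79a, Cd79b and Ebf1, was 0.92, 0.76 and 0.91 on the IDH1mut arrays, -0.42, -0.82 and -0.64 on the IDH1wt arrays, and -0.13, -0.55 and -0.03 on the CTL arrays. On IDH1mut replicate 2 Vpreb1, Igll1 and Dntt averaged 0.62 and the 5 other genes -0.14, and on CTL replicate 2 the same sets averaged 0.36 and 0.91. Deviations are centred over the 9 arrays, so these differences sum to 0 and their signs are relative to that mean; IDH1wt replicate 2 lay as far from it as IDH1mut replicate 2. The sets were formed after the values were seen, with Vpreb1, Igll1 and Dntt known to be higher in IDH1mut, so the differences are a description with no test.

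**Figure D4:**
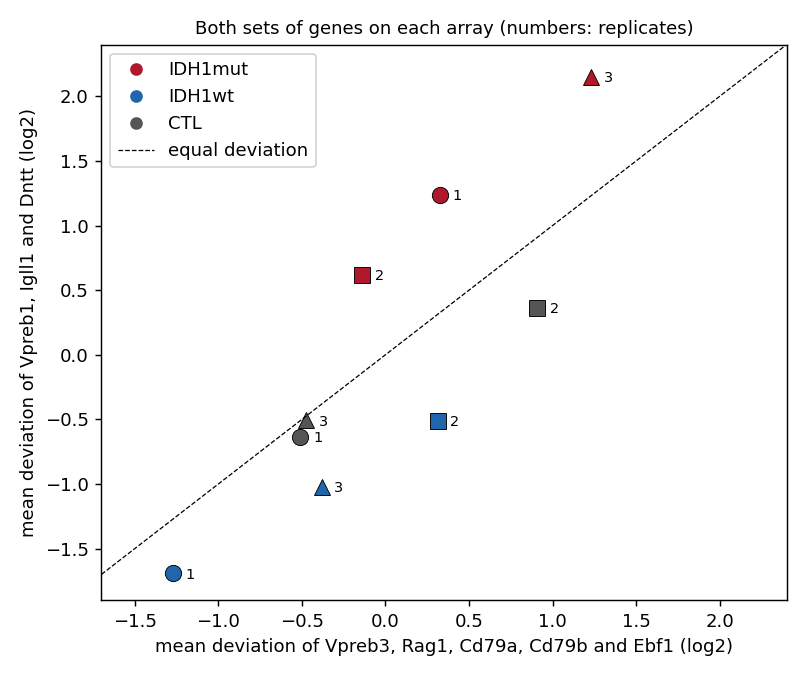
Mean deviation of Vpreb1, Igll1 and Dntt (y axis) against that of Vpreb3, Rag1, Cd79a, Cd79b and Ebf1 (x axis), both in log2 units, for each of the 9 arrays, numbered by replicate; the dashed line marks equal deviation. All 3 IDH1mut arrays lie above the line and the other 6 arrays below it, although IDH1mut and the other groups overlap along the x axis; because deviations are centred over the 9 arrays, the position of the line is relative.

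After the members themselves, the gene nearest to Vpreb1, Igll1 and Dntt was Mzb1, an endoplasmic reticulum protein of B lineage cells, at 0.42, 0.26 and 0.40 from them over the 9 arrays. Mzb1 was also among the 5 genes nearest to Ebf1, at 0.38. Mzb1 read 7.98, 7.61 and 8.96 on the IDH1mut arrays, 6.16, 6.83 and 6.54 on the IDH1wt arrays, and 6.93, 7.81 and 6.89 on the CTL arrays. Its IDH1mut arrays were clear of IDH1wt but overlapped CTL, and it rose in IDH1mut against IDH1wt (1.67 ± 0.33; adjusted p = 0.00743) and did not pass against CTL (0.98; adjusted p = 0.0574). Gfra2, a receptor for neurturin, came next, at 0.47 from Vpreb1, 0.30 from Igll1 and 0.46 from Dntt, and Emp1 was 0.49 from Igll1 and 0.56 from Dntt.

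Pou2af1, a B cell coactivator, was 0.19 from Vpreb3, 0.24 from Cd79b and 0.36 from Ebf1. Pou2af1 read 6.74, 6.46 and 7.69 on the IDH1mut arrays, 5.64, 7.24 and 6.51 on the IDH1wt arrays, and 6.33, 7.94 and 6.35 on the CTL arrays. CTL replicate 2 was its highest array, as for Cd79b, and the groups overlapped. Blnk, the adaptor that links SYK to phospholipase C gamma, was 0.28 from Vpreb3 and 0.24 from Cd79b, and Id3, an inhibitor of E proteins, was 0.24 from Vpreb3, 0.26 from Cd79a and 0.26 from Cd79b. Nearest to Cd79a were Ly6d (0.21), which marks B-biased lymphoid progenitors, and Il7r (0.23), the receptor for the cytokine that early mouse B cells need, followed by Tnfrsf19 (0.23). Sdc4, a syndecan, was 0.25 from Cd79a, 0.31 from Ebf1 and 0.42 from Rag1, and Snn was 0.20 from Cd79b. Neither Ly6d (0.54 ± 0.32; adjusted p = 0.277) nor Il7r (0.41 ± 0.39; adjusted p = 0.52) passed in IDH1mut against CTL.

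Of 12 measured genes of V(D)J recombination and end joining, 3 rose and 0 fell in IDH1mut against CTL, with a median of 0.13; beside Dntt these were Xrcc5, which encodes the Ku80 end-binding protein (0.82 ± 0.16; adjusted p = 0.00463), and Hmgb2, a DNA-bending protein (0.63 ± 0.14; adjusted p = 0.00726). In IDH1mut against IDH1wt 2 rose and 0 fell. Of 17 measured genes of pre-B and B cell receptor signalling, 2 rose and 2 fell in IDH1mut against CTL, and 4 rose and 0 fell in IDH1mut against IDH1wt. Of all genes, 10.1% rose and 10.6% fell against CTL, and 6.54% rose and 6.78% fell against IDH1wt. The signalling counts are near these shares against CTL, while the 4 risen of 17 are above them against IDH1wt. The recombination counts include Dntt, which was known beforehand to be higher in IDH1mut, so they are not set against these shares. Beside Dntt, only Hmgb2 of that list rose against IDH1wt (0.57 ± 0.14, adjusted p = 0.0184). Neither list was tested as a set, so single members are named as such and not as a change of the list. Prkcb, a protein kinase C that takes part in B cell receptor signalling, rose in both comparisons (0.66 ± 0.12 against CTL, adjusted p = 0.00234, and 0.50 ± 0.12 against IDH1wt, adjusted p = 0.0155). Syk, the kinase that binds the CD79 tails, rose in IDH1mut against IDH1wt (0.56 ± 0.14; adjusted p = 0.027) and had 0.11 ± 0.14 against CTL (adjusted p = 0.664). The adaptor Dok3 rose in IDH1mut against IDH1wt (0.42 ± 0.09; adjusted p = 0.0136), and Pik3cd, a lymphocyte phosphoinositide kinase, fell against CTL (-0.39 ± 0.10; adjusted p = 0.0137). In each comparison 13 of the 17 signalling genes did not pass. Among them was Blnk, at 0.11 ± 0.36 against CTL (adjusted p = 0.874) and 0.42 ± 0.36 against IDH1wt (adjusted p = 0.511). Which of the sorted cells the signalling transcripts came from was not tested.

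Transcription factors of early B cell fate went the other way where they changed. Of 18 measured, 0 rose and 5 fell in IDH1mut against CTL and 0 rose and 6 fell in IDH1mut against IDH1wt, with medians of -0.32 and -0.35, against -0.04 and 0.00 (-0.00011) over all genes; 10.6% and 6.78% of all genes fell in these comparisons. Tcf4, an E protein gene, fell in both (-0.85 ± 0.15, adjusted p = 0.00226, and -0.79 ± 0.15, adjusted p = 0.00591), as did Irf8, which acts in B cells and in monocytes (-0.77 ± 0.16, adjusted p = 0.00633, and -0.87 ± 0.16, adjusted p = 0.00541). Mef2c (-0.81 ± 0.14; adjusted p = 0.00353) and Irf4 (-0.81 ± 0.21; adjusted p = 0.0251) fell against IDH1wt. These factors also act in myeloid cells, so the list is not specific to B cells. The probe set of Tcf4 is of the same kind as that of Igll1, whose probes can also bind related sequences.

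Of 11 measured lymphoid progenitor and interleukin-7 receptor genes, 3 rose and 3 fell in IDH1mut against CTL, where 10.1% of all genes rose and 10.6% fell. In IDH1mut against IDH1wt 2 rose and 3 fell, where 6.54% of all genes rose and 6.78% fell. Ccr9, a chemokine receptor of lymphoid progenitors, rose against CTL (1.35 ± 0.32; adjusted p = 0.0124), and so did Satb1, a chromatin organiser that promotes lymphoid fate (1.06 ± 0.15; adjusted p = 0.000667). Ccr9 read 4.93, 4.64 and 6.14 on the IDH1mut arrays. On the CTL arrays it read 3.70, 4.33 and 3.62, below the array medians. The probe set of Ccr9 is of the same kind as that of Igll1. Jak3, the kinase of the common gamma chain, fell against CTL (-0.80 ± 0.09; adjusted p = 0.000238), and Cd27 fell as well (-0.96 ± 0.15; adjusted p = 0.00114). In IDH1wt against CTL 0 genes of these 4 lists passed with limma. An unadjusted p under 0.05 was reached by 1 of the 12 recombination, 4 of the 17 signalling, 4 of the 18 transcription factor and 3 of the 11 progenitor genes. The share of all genes at that unadjusted threshold was not counted, so these counts are no result about the lists.

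Of 13 measured mature B cell genes, 1 rose and 0 fell in IDH1mut against CTL, at a median of -0.09, and 0 rose and 1 fell in IDH1mut against IDH1wt. These counts are near the shares of all genes, of which 10.1% rose against CTL and 6.78% fell against IDH1wt. The mean level of the list ranged from 4.64 to 4.94 on the IDH1mut arrays, 4.56 to 5.21 on the IDH1wt arrays and 4.76 to 5.29 on the CTL arrays. It was highest on CTL replicate 2 and lowest on IDH1wt replicate 1, the arrays that were also the extremes of their groups for Cd79a, Cd79b and Ebf1; the part of mature B cells in those values was not tested. Bank1 rose against CTL (0.55; adjusted p = 0.0173) and Ighm, the heavy chain gene of IgM, fell against IDH1wt (-1.16 ± 0.34; adjusted p = 0.0427). Ighm read 3.42, 4.45 and 4.11 on the IDH1mut arrays, 4.25, 5.65 and 5.55 on the IDH1wt arrays, and 4.74, 4.58 and 4.87 on the CTL arrays, mostly near or below the array medians. Ms4a1, which encodes CD20 and was chosen after its values were seen, averaged 5.88 ± 0.60 in IDH1mut, 5.53 ± 1.10 in IDH1wt and 5.68 ± 0.87 in CTL (SD, n = 3 each; adjusted p = 0.841 in IDH1mut against CTL with limma).

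Markers of other cells were counted in the comparisons in which Vpreb1, Igll1 and Dntt rose. Of all genes, 10.1% rose and 10.6% fell in IDH1mut against CTL, and 6.54% rose and 6.78% fell in IDH1mut against IDH1wt. The share of all genes at an unadjusted p under 0.05 was not counted. None of these lists was tested as a set. All 13 neutrophil genes had means above the array medians, with 5 risen and 4 fallen in IDH1mut against CTL and also 5 and 4 in IDH1mut against IDH1wt. Of 8 measured erythroid genes 7 rose in IDH1mut against CTL, while 0 passed in IDH1mut against IDH1wt with limma, where 7 had an unadjusted p under 0.05. Their mean level was 7.78 to 8.09 on the IDH1mut arrays, 6.48 to 7.83 on the IDH1wt arrays and 6.69 to 6.75 on the CTL arrays. Of 15 T cell genes 5 rose and 1 fell in IDH1mut against CTL, and 4 rose and 1 fell in IDH1mut against IDH1wt. Their mean level was 4.88 to 5.23 on the IDH1mut arrays, 4.73 to 4.89 on the IDH1wt arrays and 4.84 to 4.92 on the CTL arrays. Of 5 monocyte genes 0 rose and 1 fell in IDH1mut against CTL, and 0 rose and 4 fell in IDH1mut against IDH1wt, among them Cd14, a lipopolysaccharide co-receptor (-1.48 against CTL, adjusted p = 0.000301, and -0.91 against IDH1wt, adjusted p = 0.00801). Of 7 plasmacytoid dendritic cell genes, which share Ccr9 with the progenitor list, 1 rose and 2 fell in IDH1mut against CTL, and 0 rose and 1 fell in IDH1mut against IDH1wt. Of 7 plasma cell genes 0 rose and 1 fell in IDH1mut against CTL, namely Sdc1, which marks plasma cells (-1.05; adjusted p = 0.014). In IDH1mut against IDH1wt 1 plasma cell gene rose, Mzb1 with the value given above, and 1 fell, again Sdc1 (-1.36 ± 0.26; adjusted p = 0.006). Of 7 natural killer cell genes 0 passed with limma in either comparison, with 0 at an unadjusted p under 0.05 in IDH1mut against CTL and 1 in IDH1mut against IDH1wt, which was Eomes, named here after its value was seen. The part of the make-up of the sorted cells in the rises of Vpreb1, Igll1 and Dntt was not tested.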

How the data were processed

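The authors deposited log2 expression values per probe set for 9 arrays; RMA, which corrects background, normalises arrays by quantiles and summarises probes, is the only step that the submitters' processing notes name. Of 20877 probe sets, 17815 had 1 gene symbol in the platform annotation and were kept. RMA compresses folds of dim genes, and the number of arrays limits the precision. Where a gene had several probe sets, the brightest on average was taken, and a mean per group was fitted in limma 3.58.1 (R 4.3.3), over all 9 arrays; moderated two-sided contrasts were adjusted by Benjamini-Hochberg over 17731 genes at 0.05. The procedure was run on simulated data in which each gene varied independently. Most of the 9 genes varied together between arrays, so that run does not bear on their calls. An exact permutation test of 3 against 3 arrays cannot go below p = 0.1 and was not used. Genes named are the 9 members, the 5 nearest genes of each member with an SD of at least 0.5, and up to 4 changed genes of each list, plus those marked as chosen later. The members and lists were chosen with earlier results of these data known. Alternatives changed the probe set rule, dim gene filter, normalisation, centring, arrays fitted, spread model, array weights, moderation and replicate block, and left out each array in turn.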

Additional observations from a re-analysis of the deposited data

How the results depend on the processing

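Of 477 values of single genes under the alternatives, 452 kept their direction and side of the threshold, 12 lost their call and 13 changed sign, all 13 of them uncalled. The number of the 9 genes that passed in IDH1mut against CTL was 3, but 0 with the intensity trend and robust variances, 0 with an unmoderated test, and 1 to 3 on leaving out single arrays. It stayed at 3 in IDH1mut against IDH1wt and 0 in IDH1wt against CTL throughout. With the replicate number as a block it was 3, 3 and 0 in IDH1mut against CTL, IDH1mut against IDH1wt and IDH1wt against CTL, with no change. Same-numbered arrays of different groups correlated between -0.09 and 0.03 in their deviations from group means. The replicate numbers thus showed no shared effect over all genes. The labels state no pairing, and these correlations cannot exclude one. Of all genes, 3663 changed in IDH1mut against CTL (2370 to 3805 without single arrays, lowest without CTL replicate 1) and 2363 in IDH1mut against IDH1wt (1475 to 2193). In IDH1wt against CTL 414 changed, 132 to 570 without single arrays, 717 with the trend and robust variances, 1226 with array weights and 58 unmoderated. Leaving out single arrays turned Vpreb3 (-0.13 to 0.78) and Cd79b (-0.16 to 0.53) in IDH1mut against CTL, and Rag1 (-0.69 to 0.46) and Cd79a (-0.28 to 0.33) in IDH1wt against CTL. Array weights turned Rag1 (0.22) and Cd79a (0.20), and array centring Cd79a (0.00138), in the last comparison. The mean of both probe sets turned Pax5 in IDH1mut against IDH1wt (-0.10). Among the brighter genes alone, 6 of the 9 were left and 3 passed in IDH1mut against CTL. The causes were not tested.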
